A study of Mus musculus with 3 samples.

Results

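The SLC12 genes encode cation chloride cotransporters, membrane proteins that carry chloride together with sodium, potassium or both. 8 of them, Slc12a1, Slc12a2, Slc12a3, Slc12a4, Slc12a5, Slc12a7, Slc12a8 and Slc12a9, were read from the gene counts of the mouse kidney line mpkDCT4a by their GENCODE M21 symbols, out of 55487 genes in all. The genes were chosen by family, with earlier results of these data known. All 3 RNA libraries belong to 1 group of unmodified cells, an immortalised line labelled as distal convoluted tubule, and there is no second condition, so levels are compared between genes and between replicates. The cells had grown at 37 °C with serum (2%), dexamethasone (50 nM), triiodothyronine (1 nM), epidermal growth factor (10 ng/ml), insulin (5 µg/ml) and glucose (20 mM). No label says that the replicates came from separate cultures, so their spread may be technical.

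The family has a sodium-dependent branch that normally loads cells with chloride and a potassium-chloride branch that normally lets it out, both driven by the gradients that the sodium pump maintains. Kinases of the WNK family, acting through SPAK and OSR1, switch the sodium-dependent branch on and the potassium-chloride branch off by phosphorylation. In the kidney, the distal convoluted tubule is defined by the thiazide-sensitive sodium chloride cotransporter, the product of Slc12a3, and the thick ascending limb by the loop-diuretic-sensitive cotransporter of Slc12a1.

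Replicate 1 had a depth of 436983 counts, replicate 2 of 482418 and replicate 3 of 443192, and a single count was worth 2.07 to 2.31 counts-per-million (CPM). Detection means a mean level of 1 CPM or more, and a gene with 0 counts may still have had up to 2.20 CPM, the level of 3 counts over all libraries. This limit and all intervals cover counting error only. Beside the 50.6% of protein-coding genes that were detected, the distal convoluted tubule markers had 5 of 12, namely Wnk4, Cnnm2, Trpm6, Kcnj10 and Egf, and Pvalb, Calb1, Klhl3, Emx1, Sall3 and Tmem52b had 0 counts besides Slc12a3, so several defining transcripts of the labelled cell type were not detected at this depth. Of 11 thick ascending limb and macula densa markers 4 were detected, of 12 markers of the connecting tubule and collecting duct 1, of 10 proximal tubule markers 5, of 8 fibroblast and smooth muscle markers 4, and of 10 endothelial, leukocyte and podocyte markers 1. The summed level of the proximal tubule markers ran from 268 to 331 CPM over the libraries. Most of it came from Lrp2 at a mean of 215 CPM and then Aqp1 at 60.3 CPM. Per exon length the order turned round, with Aqp1 at 84.6 and Lrp2 at 47.3 transcripts-per-million (TPM). Slc34a1, Slc5a2, Slc5a12, Slc22a6 and Hnf4a had 0 counts. The sum of the distal convoluted tubule markers ran from 66.3 to 94.1 CPM. The part of this mixture of markers in the levels below was not tested.

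4 SLC12 genes carried nearly all the reads: Slc12a2 of the sodium-dependent branch, Slc12a4 and Slc12a7 of the potassium-chloride branch, and Slc12a9. The kidney-specific pair Slc12a1 and Slc12a3 had no count, and the neuronal Slc12a5 had 1. Slc12a8 was at the edge of detection. In bulk samples like these, fewer cells that express a gene and less RNA per cell cannot be told apart. In all, 5 of the 8 genes were detected, beside 50.6% of 21974 protein-coding genes. Together the 8 genes took 282, 299 and 280 counts in replicates 1, 2 and 3, which is 0.0632% ± 0.00128 of all counts (SD, n = 3).

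Slc12a3 (ENSMUSG00000031766, GRCm38 chromosome 8, 94329201 to 94366214, plus strand) and Slc12a1 (ENSMUSG00000027202, chromosome 2, 125152505 to 125230002, plus strand) had 0 counts in replicates 1, 2 and 3. Per library, 0 counts allow a level of up to 6.92, 6.21 and 6.72 CPM. Divided by the length of their annotated exons, the limit over all libraries was 0.729 TPM for Slc12a3 and 1.41 TPM for Slc12a1. Their annotated exons span 11119 and 5763 bases, but their longest transcripts 4310 and 4740. The order of these limits therefore depends on the length used. The 250 bases before the RefSeq start of each gene, on GRCm38.p6, are shown with capitals marking each CpG dinucleotide. The Slc12a3 stretch (chr8:94328958-94329207, plus strand) holds 3 CpGs and the Slc12a1 stretch (chr2:125152350-125152599, plus strand) 4.
Slc12a3: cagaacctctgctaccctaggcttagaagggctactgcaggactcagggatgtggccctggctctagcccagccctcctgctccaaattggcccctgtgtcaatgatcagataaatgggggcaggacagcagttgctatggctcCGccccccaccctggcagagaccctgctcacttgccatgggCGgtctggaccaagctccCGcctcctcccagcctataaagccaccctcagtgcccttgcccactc
Slc12a1: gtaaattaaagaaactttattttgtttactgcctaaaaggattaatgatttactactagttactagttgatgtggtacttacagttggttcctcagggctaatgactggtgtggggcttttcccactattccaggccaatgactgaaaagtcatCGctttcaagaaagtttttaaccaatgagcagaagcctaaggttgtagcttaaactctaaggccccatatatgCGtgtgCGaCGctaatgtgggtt
The stretch of Slc12a3 contains TATAAA 32 bases before the start, counted from the first base of the motif, and that of Slc12a1 contains CCAAT at 115 and 75 bases before it.

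Slc12a2, the other sodium-dependent gene, was far above these limits. It encodes the sodium, potassium and chloride cotransporter NKCC1 that many epithelia carry on their basolateral side for chloride loading and volume recovery (ENSMUSG00000024597, chromosome 18, 57878678 to 57946821, plus strand). It had 112, 134 and 136 counts in replicates 1, 2 and 3, or 258, 277 and 305 CPM, and 280.2 ± 23.2 CPM on average (SD, n = 3), with a counting interval of 253 to 310 CPM. Divided by exon length these are 85.8, 94.2 and 104 TPM. Replicate 1 was the lowest on each scale, and the lowest library was far above the 0 counts of its relatives. With 3 counts over the group in place of 0, Slc12a2 was per exon length at least 130-fold higher than Slc12a3. Against Slc12a1 it was at least 67.2-fold higher. These bounds depend on the length used. The annotated exons span 10920 bases in Slc12a2 and 11119 in Slc12a3, but the longest transcripts 6520 and 4310 bases. In counts the bound was 127-fold against either gene. None of these bounds includes the counting error of Slc12a2 itself.

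The potassium-chloride branch was represented by Slc12a4 and Slc12a7. Slc12a4 encodes KCC1, the broadly expressed member that takes part in regulatory volume decrease (ENSMUSG00000017765, chromosome 8, 105943590 to 105966097, minus strand). It had 69, 65 and 58 counts, which is 159, 135 and 130 CPM and 135, 117 and 113 TPM, in replicates 1, 2 and 3. Slc12a7 encodes KCC4, found in epithelia including kidney tubules, and its loss in mice causes deafness and renal tubular acidosis (ENSMUSG00000017756, chromosome 13, 73733094 to 73816754, plus strand). Its counts were 82, 76 and 71, or 189, 157 and 159 CPM and 54.1, 46.1 and 46.6 TPM. In each of the 3 libraries Slc12a7 had the more counts and Slc12a4 the more TPM, since the annotated exons span 12669 bases in Slc12a7 and 4279 bases in Slc12a4. Replicate 1 was the highest library for both genes in CPM.

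Slc12a5, which encodes the neuronal transporter KCC2 that keeps chloride low in mature neurons, had 0, 0 and 1 counts (ENSMUSG00000017740, chromosome 2, 164960802 to 164999731, plus strand). A single count gives an interval of 0.0186 to 4.09 CPM, and its mean of 0.747 CPM was under the level for detection. Of 10 other neuronal genes 1 was detected, or 10% beside 50.6% of protein-coding genes: Tubb3, a neuronal tubulin, at 27.8 ± 11.8 TPM, while Syt1, Slc17a7 and Syp had 1 count each and Rbfox3, Snap25, Stmn2, Elavl3, Gad1 and Nefl had 0. REST, which represses neuronal genes outside neurons and is known to act on this gene, was detected with its partners, 8 of 8 listed genes beside the same 50.6%, among them Rest at 88.9 ± 6.15 TPM, Hdac2 at 172 ± 14.5 TPM, Sin3a at 78.4 ± 6.15 TPM and Rcor1 at 75.2 ± 12.2 TPM (SD, n = 3 each). Whether REST bore on the level of Slc12a5 was not tested.

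The remaining genes have less settled roles. Slc12a9 encodes a protein first described as a partner that interacts with other cotransporters of the family (ENSMUSG00000037344, chromosome 5, 137314558 to 137333597, minus strand). It had 18, 23 and 13 counts, or 41.5, 47.6 and 29.1 CPM, in replicates 1, 2 and 3. Replicate 3 was the lowest. Its coefficient of variation of 23.9% was the highest among the 4 genes with at least 10 counts, against 8.29% for Slc12a2, 10.6% for Slc12a7 and 11.1% for Slc12a4. It also had the fewest counts of these 4, 54 in all against 382 for Slc12a2, and relative counting error is larger at fewer counts. The coefficients therefore do not show that Slc12a9 varied more than the others beyond counting error. Slc12a8, reported in mice to carry nicotinamide mononucleotide, a precursor of NAD, had 1 count in each library (ENSMUSG00000035506, chromosome 16, 33517328 to 33664135, plus strand). Those 3 counts give 2.21 CPM with an interval of 0.454 to 6.43 CPM. The low SD of 0.122 CPM between its libraries does not measure its precision, since counting error alone is larger. Of 13 enzymes around nicotinamide mononucleotide 9 were detected (69.2%), beside 50.6% of protein-coding genes, but only 3 had at least 10 counts. These 3 were Nadk at 85.1 ± 9.83 TPM, Nampt, which makes the mononucleotide, at 75.9 ± 9.69 TPM, and Nmnat3 at 13.5 ± 1.40 TPM. Nmnat1 followed with 6 counts. Naprt, Nnmt and Nt5e had 1 count each and Nmrk2 had 0.

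**Figure D1:**
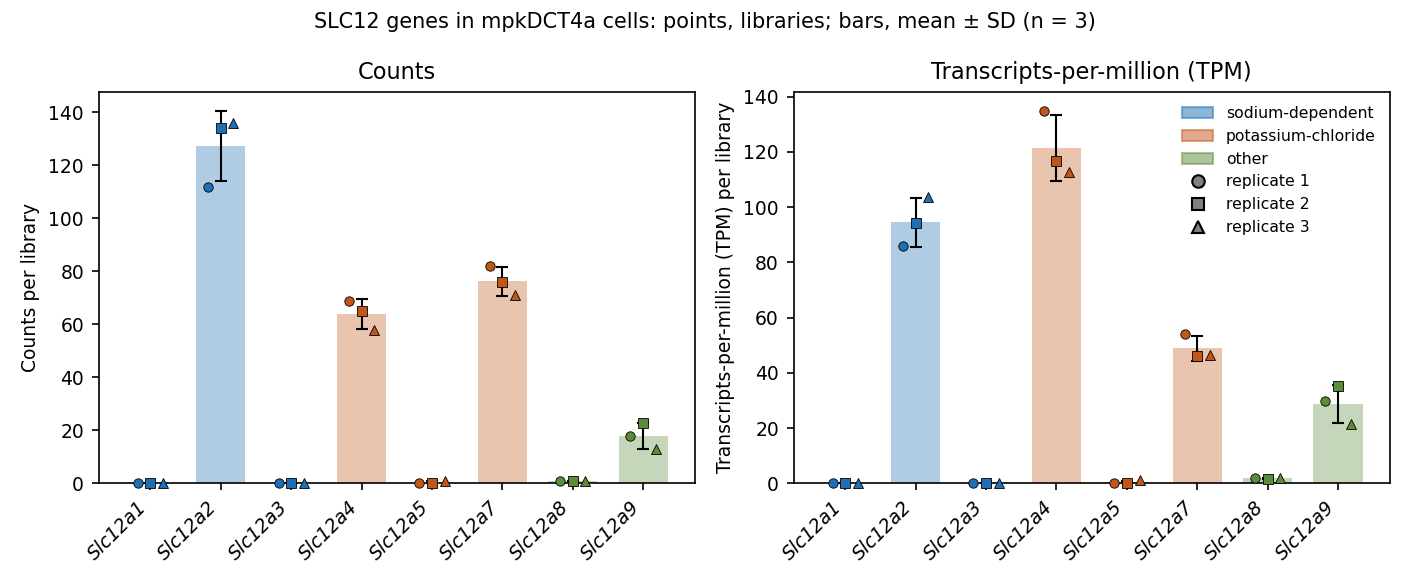
Counts (left) and TPM (right) of the 8 SLC12 genes in each library; points are the 3 libraries, bars the mean and whiskers the SD, coloured by branch. Slc12a2 leads in counts with 112 to 136 per library, while Slc12a4 leads in TPM with 113 to 135, and Slc12a1 and Slc12a3 lie at 0.

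The replicates did not differ in any SLC12 gene by the test used. Each gene's libraries were set against their sizes by chi-square over 12473 detected genes, with p-values adjusted by Benjamini-Hochberg, and 0.0401% of genes were called (5 genes) and 0 of the 5 detected SLC12 genes. The unadjusted count was 610 genes, or 4.89%, and 0 SLC12 genes. The lowest adjusted p of an SLC12 gene was 0.939, for Slc12a9. An exact multinomial test gave Slc12a9 a p of 0.354, Slc12a2 0.430, Slc12a7 0.436, Slc12a4 0.477 and Slc12a8 1.00. A p above the threshold does not show that the libraries were equal.

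Per exon length, the order of levels was Slc12a4, Slc12a2, Slc12a7, Slc12a9, Slc12a8 and Slc12a5, with 121 ± 11.8, 94.5 ± 8.91, 48.9 ± 4.51, 28.9 ± 6.88, 1.83 ± 0.0863 and 0.372 ± 0.645 TPM (SD, n = 3 each). Slc12a4 was 1.28 times Slc12a2 over all libraries, with a counting interval of 1.07 to 1.53, and 1.57, 1.24 and 1.09 times in replicates 1, 2 and 3. Without replicate 1 that interval ran from 0.932 to 1.44. Slc12a2 was 1.94 times Slc12a7 (1.64 to 2.29), Slc12a7 was 1.68 times Slc12a9 (1.24 to 2.30) and Slc12a9 was 15.9 times Slc12a8 (5.17 to 79.7). Slc12a8 and Slc12a5 could not be separated, with a ratio of 5.03 and an interval of 0.404 to 264. The higher gene of each neighbouring pair led in all 3 libraries, and the exact sign-flip permutation test (two-sided) gave p = 0.25 for each of the 15 pairs, raw and adjusted, which is the smallest it can give with 3 libraries.

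The place of Slc12a4 and Slc12a2 at the top depended on the length used. When counts were divided by the longest annotated transcript, 3811 bases for Slc12a4 and 6520 for Slc12a2, the ratio of Slc12a4 to Slc12a2 was 0.860 with an interval of 0.719 to 1.03, and with the median length of coding transcripts it was 0.873 with an interval of 0.730 to 1.04. Without any length it was 0.503 (0.420 to 0.599). The interval was above 1 per exon union, below 1 without a length and included 1 in the other cases, while Slc12a2 stayed above Slc12a7 and Slc12a7 above Slc12a9 under each of these lengths. Slc12a4 exceeded Slc12a7 by 2.48 times per exon length (2.04 to 3.02) and by 1.54 times per longest transcript (1.26 to 1.87), but the interval per median transcript, 0.943 to 1.40, included 1.

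**Figure D2:**
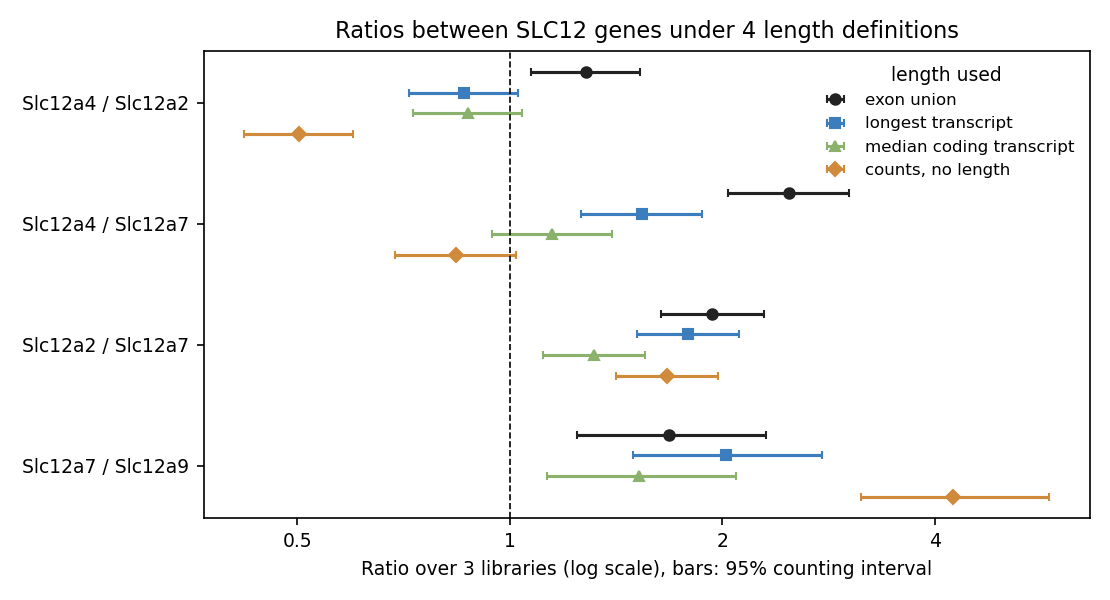
Ratio between SLC12 genes (horizontal, log scale) under 4 ways of treating length; points are ratios of counts summed over 3 libraries and bars their 95% counting intervals. Slc12a4 over Slc12a2 lies at 1.28 per exon union but at 0.860, 0.873 and 0.503 in the other rows, whereas Slc12a2 over Slc12a7 stays above 1.

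By branch, the potassium-chloride genes Slc12a4, Slc12a5 and Slc12a7 summed to 189, 163 and 160 TPM in replicates 1, 2 and 3, and the sodium-dependent genes, that is Slc12a2 alone, to 85.8, 94.2 and 104 TPM. The ratio of the branches was 1.83 ± 0.338 (SD, n = 3), with 2.20, 1.73 and 1.55 in the single libraries. It was above 1 in all 3 libraries, with an exact sign-flip permutation p of 0.25 (two-sided). In counts the branches were close, with 151, 141 and 130 counts for the potassium-chloride genes and 112, 134 and 136 for the sodium-dependent ones, so that replicate 3 went the other way. The ratio of the branches was 1.44 per longest transcript, 1.66 per median coding transcript and 1.12 in counts not divided by length. The sums cover the 8 genes named here. Slc12a4 made up 41.0% ± 2.62 of their TPM, Slc12a2 32.0% ± 4.03, Slc12a7 16.5% ± 1.02 and Slc12a9 9.75% ± 2.24.

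The stretches before the starts of Slc12a4, Slc12a5, Slc12a7 and Slc12a9 held more CpGs than those of Slc12a3 and Slc12a1 shown above. Of these, Slc12a5 had 1 count. Slc12a2 has no entry in the table used. The 250 bases before the start (RefSeq, GRCm38.p6, capitals marking CpG) are given for Slc12a7 at the second of its 2 starts (chr13:73763447-73763696, plus strand), for Slc12a4 (chr8:105966116-105966365, minus strand) and for Slc12a9 (chr5:137333583-137333832, minus strand), to set beside the pair with 0 counts.
Slc12a7: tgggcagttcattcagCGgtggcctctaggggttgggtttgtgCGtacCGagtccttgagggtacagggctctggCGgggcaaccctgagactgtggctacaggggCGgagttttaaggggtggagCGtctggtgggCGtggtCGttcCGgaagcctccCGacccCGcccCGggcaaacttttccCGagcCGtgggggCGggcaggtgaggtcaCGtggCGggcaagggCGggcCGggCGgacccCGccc
Slc12a4: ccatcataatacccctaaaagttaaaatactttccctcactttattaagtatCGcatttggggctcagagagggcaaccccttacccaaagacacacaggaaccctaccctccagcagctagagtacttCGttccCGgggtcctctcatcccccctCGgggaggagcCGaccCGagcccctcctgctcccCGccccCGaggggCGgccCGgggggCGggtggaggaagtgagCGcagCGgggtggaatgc
Slc12a9: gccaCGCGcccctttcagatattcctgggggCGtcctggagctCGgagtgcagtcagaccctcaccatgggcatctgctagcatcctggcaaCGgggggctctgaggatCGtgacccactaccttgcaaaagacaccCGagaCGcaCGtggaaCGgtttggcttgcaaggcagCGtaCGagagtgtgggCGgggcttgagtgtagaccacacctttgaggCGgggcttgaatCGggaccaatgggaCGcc
They hold 21, 13 and 16 CpGs. The ratio of observed to expected CpG, which corrects for base composition, was 0.746 for Slc12a7, 0.569 for Slc12a4 and 0.680 for Slc12a9, against 0.134 for Slc12a3 and 0.413 for Slc12a1. The first start of Slc12a7 had 15 CpGs and a ratio of 0.631. Both of its starts, at 73763660 and 73763697, lie inside the GENCODE gene, which begins at 73733094. Slc12a8, at the edge of detection, had 6, 3 and 5 CpGs and ratios of 0.346, 0.182 and 0.284 at its 3 starts, in the range of Slc12a3 and Slc12a1.

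Slc12a5, with a single count, had 13 and 16 CpGs and ratios of 0.579 and 0.591 at its 2 starts, above the 0.569 of Slc12a4. Over 16536 protein-coding genes with a start in the table, taking each gene's highest ratio, 7.21% of genes with a ratio under 0.2 were detected, 21.7% between 0.2 and 0.4, 54.4% between 0.4 and 0.6 and 77.2% between 0.6 and 0.8. The median ratio was 0.781 in detected genes and 0.233 in genes with 0 counts. Slc12a3, with 0 counts, lay under 0.2, and Slc12a8, detected on 3 counts, between 0.2 and 0.4. Slc12a7 and Slc12a9, also detected, lay between 0.6 and 0.8. In the class between 0.4 and 0.6, 54.4% of genes were detected, beside 8823 of all 16536 genes with a start. It held Slc12a4 with 192 counts as well as Slc12a1 with 0 and Slc12a5 with 1, so the ratio did not separate these genes. Of the motifs searched on both strands, the GC box GGGCGG was present before every start of Slc12a4, Slc12a7 and Slc12a9 as well as before Slc12a3 and the second start of Slc12a5. It occurs in 32.7% of all 32851 stretches of this length, TATAAA in 12.4% and CCAAT in 33.8%. Counted by gene over all its starts, GGGCGG was present in 67.0% of detected protein-coding genes. The share was 23.3% in those with 0 counts and 47.5% in all. TATAAA was found only before Slc12a3 among the 11 starts of these genes. Such matches describe letters, not sites in use, and the bases that follow the start were found in a GENCODE transcript of the gene for 7 of the 11 starts, not for that of Slc12a4.

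**Figure D3:**
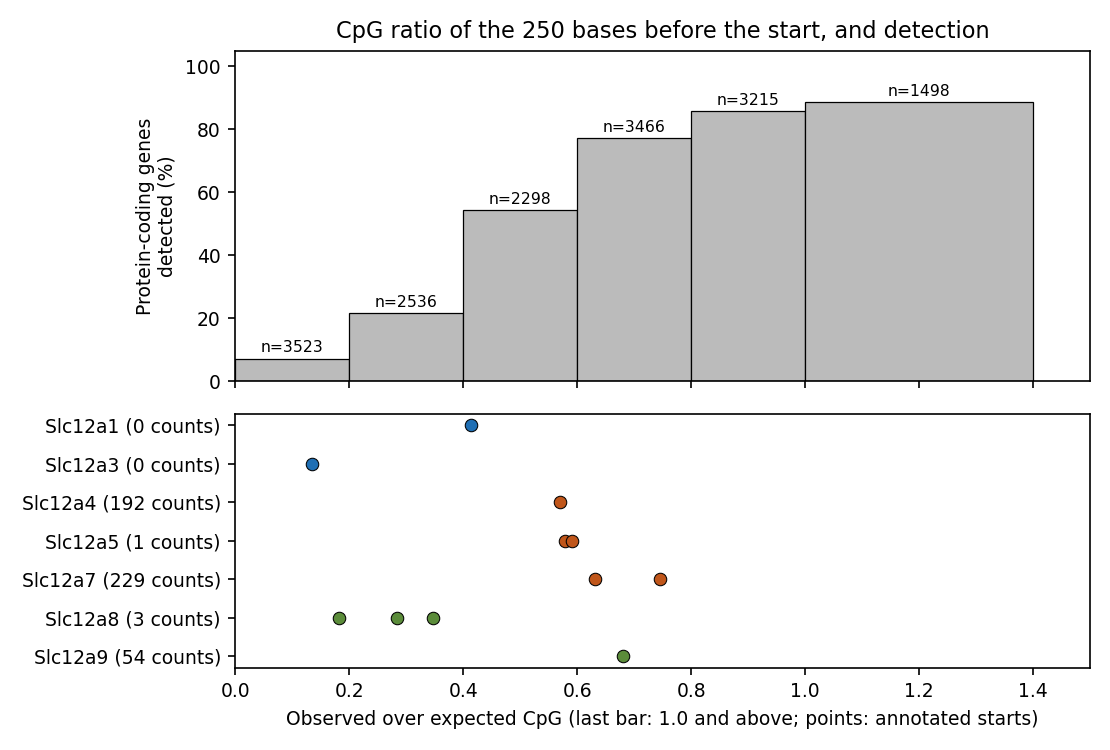
Upper panel, percent of protein-coding genes detected (at least 1 CPM) by the observed over expected CpG ratio of the 250 bases before the start, with the number of genes in each bar; lower panel, the same ratio at each annotated start of 7 SLC12 genes. Slc12a3 lies at 0.134, where 7.21% of genes were detected, and Slc12a5 at 0.579 and 0.591 with 1 count.

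Among the solute carriers, the wide superfamily of membrane transporters whose genes are named Slc, the detected SLC12 genes were spread from rank 18 to rank 173. Of 371 protein-coding Slc genes 185, or 49.9%, were detected, and the median detected one stood at 23.3 TPM. By mean TPM, Slc12a4 ranked 18, Slc12a2 25, Slc12a7 48, Slc12a9 83 and Slc12a8 173. By CPM, which favours long genes, Slc12a2 ranked 10, Slc12a7 18 and Slc12a4 21. The top of the list was taken by the mitochondrial ADP and ATP carrier Slc25a5 at 825 ± 56.5 TPM. Among all protein-coding genes with a count, Slc12a4 lay at percentile 87.3, Slc12a2 at 83.0, Slc12a7 at 66.0, Slc12a9 at 50.4 and Slc12a8 at 8.87.

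The Slc genes closest in level, by mean TPM over 3 libraries, were found for each detected SLC12 gene, one above it and one below. Slc12a4 lay between the zinc transporter Slc30a4 (125 ± 22.2 TPM) and the anion exchanger Slc4a2 (118 ± 2.36 TPM), which itself moves chloride against bicarbonate. Slc12a2 lay between the mitochondrial aspartate and glutamate carrier Slc25a13 (94.9 ± 14.5 TPM) and Slc35e1 (84.9 ± 10.6 TPM). The neighbours of Slc12a7 were the zinc transporters Slc30a5 (50.3 ± 4.08 TPM) and Slc39a10 (48.0 ± 5.75 TPM). Slc12a9 fell between the nucleotide sugar transporter Slc35a1 (29.4 ± 13.3 TPM) and Slc35c2 (28.3 ± 0.996 TPM), and Slc12a8 between Slc25a42 and Slc24a3, with 4 and 3 counts. In each pair the gap was smaller than the larger of the SDs between libraries.

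**Figure D4:**
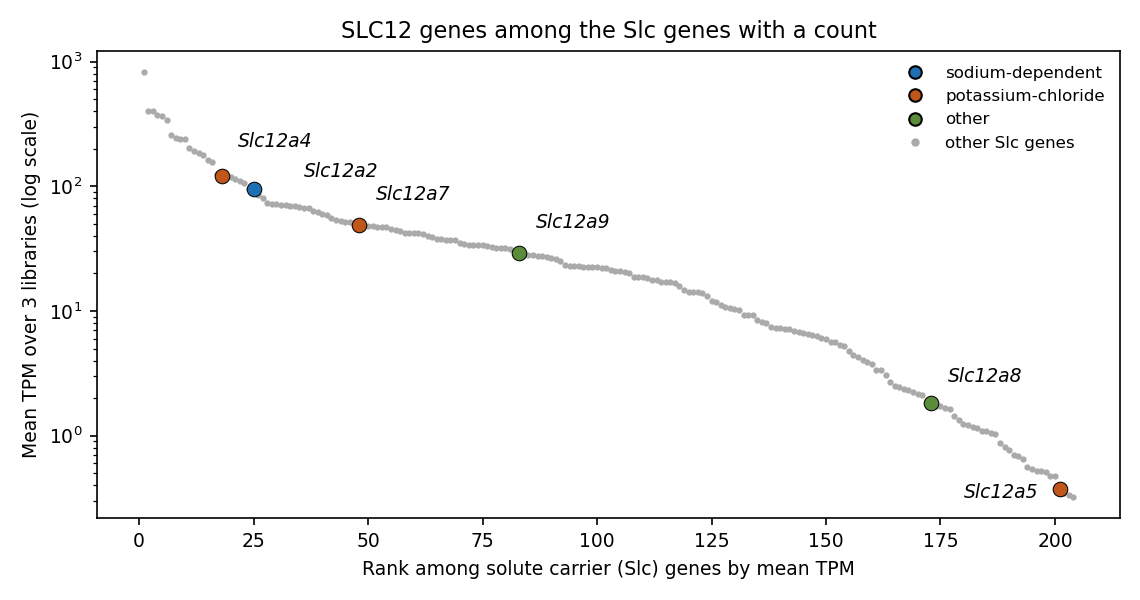
Mean TPM over 3 libraries (vertical, log scale) against rank among protein-coding Slc genes (horizontal), for the 204 with at least 1 count; coloured points are SLC12 genes. Slc12a4 and Slc12a2 are at ranks 18 and 25, Slc12a8 at 173.

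The kinases and ligases that act on the cotransporters were mostly present. Of 17 regulators 13 were detected, or 76.5% beside the 50.6% of protein-coding genes. By the chi-square test 0 of them differed between replicates, beside 0.0401% of all detected genes. Wnk1, the kinase at the top of the cascade, stood at 125 ± 6.38 TPM, next to Slc12a4, and Wnk4 at 40.0 ± 9.56 TPM, while Wnk3 had 1 count and Wnk2 had 0. Of the kinases that phosphorylate the transporters directly, Oxsr1 (OSR1) was at 62.4 ± 9.45 TPM and Stk39 (SPAK) at 7.12 ± 2.67 TPM. Their cofactors Cab39 and Cab39l were at 72.3 ± 6.63 and 32.3 ± 8.03 TPM. Among phosphatase parts, the catalytic subunit Ppp1ca was at 723 ± 118 TPM, Ppp4c at 72.3 ± 11.5 TPM and Ppp3ca at 27.9 ± 3.23 TPM, and the inhibitor Ppp1r1a had 0 counts. Of the ubiquitin ligase parts that limit WNK kinases, Cul3 was at 167 ± 5.61 TPM, Klhl2 had 18, 14 and 9 counts and Klhl3 had 0 counts. Nedd4l, a ligase that acts on the Slc12a3 product, was at 23.9 ± 3.73 TPM and its inhibitor kinase Sgk1 at 13.7 ± 1.86 TPM (SD, n = 3 each).

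Of the beta subunits of the sodium pump, which sets the gradients, Atp1b3 stood at 196 ± 2.96 TPM and Atp1b1 at 157 ± 26.4 TPM, whereas Atp1b2 had 1 count. Atp1a4, an alpha subunit known from sperm, and Fxyd1, a small regulator of the pump, had 0 counts. Of 19 other chloride channels and exchangers 15 were detected (78.9%), beside 50.6% of protein-coding genes, and 11 had at least 10 counts. The highest in counts were the scramblase and channel Ano6 at 110 ± 6.32 TPM, the exchanger Slc4a2, and the volume-regulated channel subunits Lrrc8d at 44.5 ± 4.52 TPM and Lrrc8b at 54.8 ± 9.41 TPM. The exchangers Slc4a1 and Slc26a4, known from intercalated cells of the distal nephron, had 0 counts. Of 8 potassium channels 3 were detected (37.5%, beside the same 50.6%), Kcnk1 at 137 ± 10.5 TPM, Kcnj16 at 28.7 ± 6.98 TPM and Kcnj10 at 4.54 ± 1.66 TPM. Kcnj1 (ROMK), which recycles potassium for the Slc12a1 product in the thick ascending limb, had 0 counts, as had Kcnj15 and Kcnq1, and Kcnma1 had 1.

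Counts of the SLC12 genes were largely free of shared sequence. Of their 50-base stretches, 0% occur in transcripts of another gene for Slc12a1, Slc12a2, Slc12a5, Slc12a7 and Slc12a9, 0.0446% for Slc12a3 and 1.66% for Slc12a8. For Slc12a4 it was 5.19%, all in the antisense gene Gm16156, whose exons overlap 361 bases of its own (8.44%). Gm16156 had 0 counts, and the strand setting of the counting is unstated, so reads of this overlap cannot be assigned to a strand. Counts were made per gene, so isoforms, such as the kidney variants of Slc12a1, are not resolved.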

How the data were processed

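Total RNA (500 ng) of 3 mpkDCT4a samples was depleted of ribosomal RNA and cut into pieces near 300 bp, per the labels' protocols. Raw counts of reads per Ensembl gene were deposited by the authors. Alignment was to mm10 with tools that include STAR and HTSeq, per the submitters' processing notes, while versions, settings, strand and annotation release were not given in the sources used here. Columns were matched to replicates by number, and 0 columns were left unused.

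Names, positions and lengths came from GENCODE M21 (55227 of 55487 identifiers matched, and the 260 others held 313 counts). CPM used TMM library sizes (edgeR 4.0.16, R 4.3.3), with factors of 0.992, 1.00 and 1.01. TPM divided counts by the union of annotated exons. Replicates were compared over all detected genes by chi-square, adjusted after Benjamini-Hochberg with a threshold of 0.05, in a script tested on simulated data. Genes were compared by ratios of summed counts per length with 95% exact binomial intervals (scipy 1.17.1), and by an exact sign-flip permutation test of log2 ratios with 0.5 CPM added. Single levels have 95% exact Poisson intervals. Starts came from RefSeq (GRCm38.p6), which held 7 of the 8 genes. Alternatives were DESeq2 1.42.0 size factors, library totals, other lengths, thresholds, filters and pseudocounts, an exact multinomial test, and leaving out each replicate. The 8 genes and the gene lists were chosen with earlier results of these data known. Named were the 8 genes, all regulators, the 4 highest and up to 4 undetected genes of each other list, the nearest Slc genes and genes with overlapping exons. The marker lists of cell types are given as counts with the undetected distal convoluted tubule markers and the proximal markers that were highest or at 0 named. Elavl3, Gad1, Nefl, Hnf4a and Slc25a5 do not come from this rule and were picked with their values in view. A further gene of the family and some genes of the lists are not reported here.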

Additional observations from a re-analysis of the deposited data

How the results depend on the processing

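No paired analysis was possible because the labels give 1 group. The ratio of Slc12a4 to Slc12a2 turned round with the longest transcript (0.860), the median coding transcript (0.873) and counts not divided by length (0.503), against 1.28 per exon union, and that of Slc12a4 to Slc12a7 with counts not divided by length (0.838, against 2.48). The share of Slc12a2 was 36.9% with the longest transcript and 44.4% in counts, against 32.0%. With at least 10 counts as the threshold, 4 SLC12 genes passed. Detected genes fell to 3 in the nicotinamide mononucleotide list, 3 in the distal convoluted tubule and 1 in the thick ascending limb. They fell to 0 in the connecting tubule, 2 in the fibroblast list and 4 in the proximal tubule. The chloride channel list fell to 11, the sodium pump list to 3 and the potassium channel list to 2. The share of all protein-coding genes at this threshold was not worked out, so these falls have no background beside them. Leaving out each replicate gave 5 to 6 detected SLC12 genes, 2 to 4 detected neuronal genes, 2 to 3 connecting tubule genes, 1 to 3 genes that differed between replicates (1 without replicate 1, 3 without replicate 2 or 3, against 5), a ratio of Slc12a4 to Slc12a2 of 1.16 to 1.39, of Slc12a2 to Slc12a7 of 1.81 to 2.13, and a ratio of the branches of 1.64 to 1.97. With 2 libraries the mean of 1 CPM is reached by fewer counts, which is why those lists grew. DESeq2 size factors and unscaled library totals changed neither the 5 detected nor the 0 differing SLC12 genes. Among single-gene values, 23 moved by more than their SD, all of them TPM under another length or ranks among Slc genes. Depth limits the statements on genes with 0 to 3 counts.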
